A study of Mus musculus with 6 samples.

Results

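Rest encodes the zinc-finger repressor REST, and the CoREST complex carries out part of its repression. The 9 genes described here were chosen by name, as Rest and 8 genes of the complex, and all 9 were found among the 48709 mouse genes counted. Each of the 9 passed the filter on low counts that left 15385 genes for testing. RNA was measured in the neocortex of C57BL/6 mouse embryos at E15.5, a day of gestation at which the cortex holds dividing progenitors and newborn neurons, and the comparison asks how expression differs when 1 allele of Rest cannot include its exon 4. The 3 WT libraries come from wild-type embryos and the 3 Rest_het libraries from embryos labelled Rest(+/deltaExon4), heterozygous for a Rest allele without that exon. The labels name no litter, sex, pooling or Cre driver, so p-values measure the spread between these samples. Reads on a LacZ sequence occurred in the 3 WT libraries (27, 51 and 43) and in none of the Rest_het libraries, while Cre-ERT2 reads occurred in the 3 Rest_het libraries (10, 16 and 17) and in none of the WT libraries. These sequences split the libraries as the genotype does, so their part in any difference and that of the allele cannot be told apart.

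REST binds a long DNA element near neuronal genes and holds them off outside neurons and in neural progenitors. It has 2 repressor domains, and the one near its C-terminus recruits CoREST, a scaffold encoded by Rcor1, Rcor2 or Rcor3. The scaffold holds the histone demethylase LSD1 (Kdm1a), the histone deacetylases Hdac1 and Hdac2, and the accessory subunits encoded by Phf21a and Hmg20b. In neural cells the splicing factor SRRM4 promotes inclusion of a short alternative exon in Rest, and the resulting protein is truncated and loses the C-terminal domain. In the developing cortex progenitors express Rest, and its level declines as neurons form.

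The alternative exon is the feature on which the mutant allele turns, and its place can be shown in the transcript. In GENCODE M21 (build GRCm38) Rest (ENSMUSG00000029249) lies on the plus strand of chromosome 5 from 77265491 to 77286432, with 2 transcripts of 4 exons each. Neither holds an exon in the intron of 5385 bases between annotated exon 3 (77275234 to 77275317) and annotated exon 4 (77280703 to 77286432), so the exon 4 of the sample labels is not the exon 4 of this annotation. The sequence of the alternative exon was not used here. The line below gives the sequence across that junction, the same in both transcripts, with the end of annotated exon 3 (chr5:77275278-77275317) in lower case and the start of annotated exon 4 (chr5:77280703-77280742) in capitals.
Rest exon 3 to exon 4 junction: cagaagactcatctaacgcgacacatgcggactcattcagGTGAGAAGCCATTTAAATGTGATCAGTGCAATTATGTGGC
The alternative exon, where included, separates these parts. Counts per gene sum all exons, so the Rest count checks neither the deletion nor the labels.

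Library sizes and tissue markers frame the values. Gene reads ranged from 19996943 to 20753653 in WT and from 17835117 to 18426652 in Rest_het libraries. Levels are given as CPM, read counts scaled to 1 common library total after TMM normalization, which corrects for differences in RNA composition. Xist reads occurred in WT replicate 2 and Rest_het replicate 3, and Y-linked reads in the other 4 libraries. WT replicate 1 stood apart most. There 16.2% of tested genes differed by over 0.5 (log2) from the mean of the other 2 WT libraries. The other 5 libraries, compared the same way, had 9.63 to 12.7%. In WT replicate 1, 26.9% of read pairs fell in no annotated exon, against 21.4 to 25.5% in the others. The 6 markers of cortical neurons, among them Neurod6 and Tbr1, summed to 2720 to 2980 CPM in WT and 2490 to 2640 CPM in Rest_het libraries, ranges that do not overlap. The 6 markers of endothelium and mural cells summed to 203 to 310 CPM in WT and 293 to 1520 CPM in Rest_het libraries, mostly from the pericyte gene Rgs5 (1432, 1161 and 196 CPM in the mutants). The markers of apical progenitors, among them Pax6 and Sox2, summed to 1350 to 1560 CPM in WT and 1320 to 1420 CPM in Rest_het libraries. For the other 7 lists (intermediate progenitors, ventral telencephalon, meninges, microglia, erythroid cells, choroid plexus and thalamus) the ranges also overlap; the choroid plexus list, led by Ttr, was the most uneven, with 2.95 to 57.7 CPM in WT and 7.98 to 373 CPM in Rest_het libraries. No marker of any list was at 0 in all libraries, and none was called. Their part in the results below was not tested. In bulk tissue, fewer cells of a type and less RNA per cell cannot be told apart.

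No gene of the complex passed the test for a difference between the genotypes. By edgeR's quasi-likelihood test with Benjamini-Hochberg adjustment over all genes, 0 of the 9 genes were called at an adjusted p under 0.05, against a background of 19 of 15385 genes (0.123%), of which 10 were higher (0.065%) and 9 lower (0.0585%). DESeq2 and limma-voom called 0 of the 9 as well, and the background of DESeq2 was 0.825%. At an unadjusted edgeR p under 0.05 there was 1 of the 9, Hmg20b, where 11.7% of all tested genes reached it. The median log2 fold change of the 9 was -0.007, with 4 above 0 and 5 below, against a median of 0.0054 over all tested genes. All 9 intervals of the fold change lay inside a 2-fold difference in either direction. In 5 of the 9 genes (55.6%) the 3 values of one genotype lay outside the range of the other, where 19.3% of all tested genes did so. These were Rest, Rcor3 and Kdm1a on the lower side, where 8.94% of tested genes lay, and Rcor2 and Hmg20b on the higher side, where 10.4% lay.

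**Figure D1:**
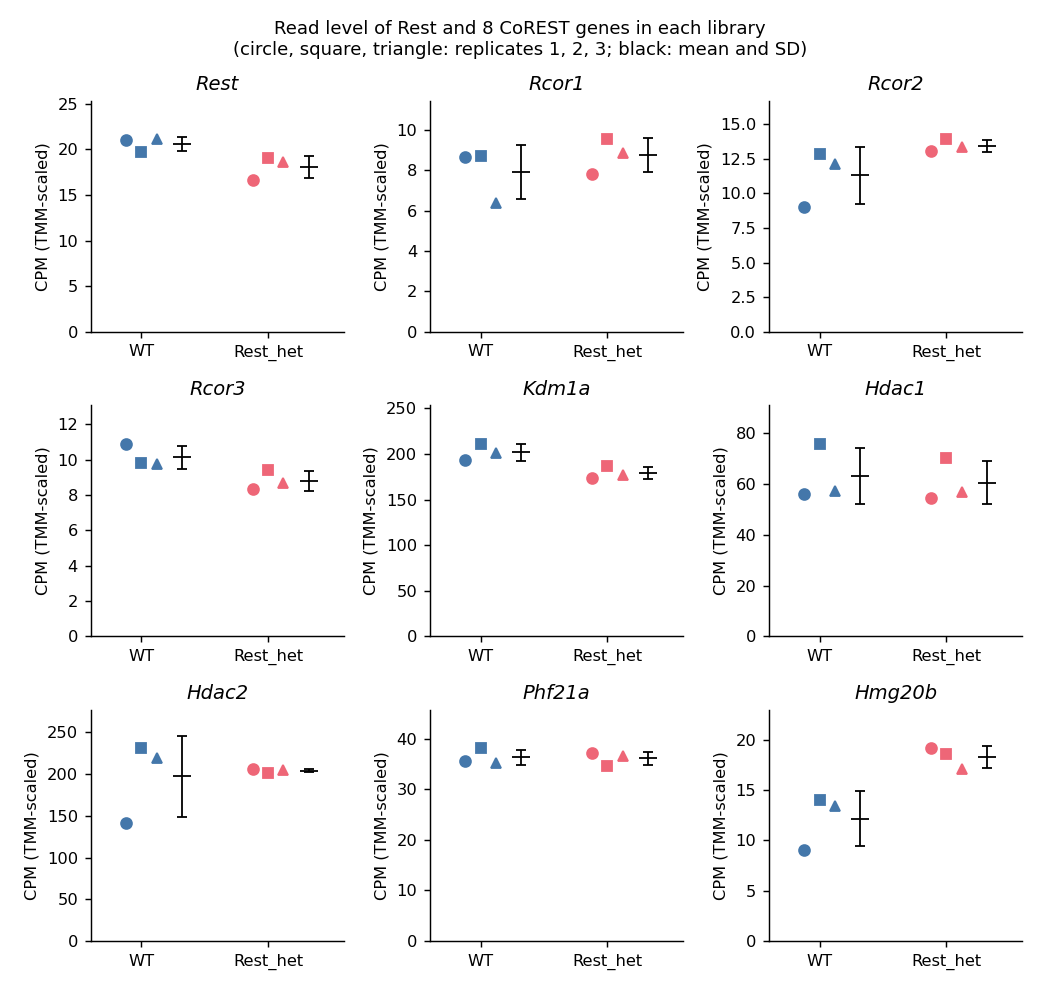
TMM-scaled CPM (y axes, from 0) of Rest and 8 CoREST genes in 3 WT and 3 Rest_het libraries; symbols mark the replicate number, and black bars the mean and SD over 3 libraries. The groups do not overlap for Rest, Rcor2, Rcor3, Kdm1a and Hmg20b, and WT replicate 1 is the lowest library for Rcor2, Hdac2 and Hmg20b.

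Rest, the factor that recruits the complex, measured 21.03, 19.7 and 21.1 CPM in WT and 16.7, 19.0 and 18.6 CPM in Rest_het libraries. Every WT value lay above every mutant value, with WT replicate 2 and Rest_het replicate 2 closest to each other. These levels rest on 374 to 440 reads per WT library and 309 to 350 reads per Rest_het library. The mean was 20.6 ± 0.778 CPM in WT and 18.1 ± 1.23 CPM in Rest_het (SD, n = 3). On the log2 scale the fold change was -0.19 with SE 0.10, and its 95% interval ran from -0.42 to 0.044. As a ratio of Rest_het to WT, that interval is 0.747 to 1.03. The edgeR adjusted p was 0.49, and the exact two-sided permutation p was 0.1, the smallest that 3 against 3 allows. The difference thus did not pass the test. Among the 4 libraries with Y-linked reads the log2 fold change was -0.24; the libraries with Xist reads are 1 per group and give no value with an error.

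The splicing regulators of the alternative exon showed no called difference either: 0 of 4 by edgeR and 0 of 4 by DESeq2, with 1 at an unadjusted edgeR p under 0.05. Of all tested genes edgeR called 0.123% and DESeq2 0.825%, and 11.7% had such unadjusted p-values. Srrm4, the neural activator of that exon, measured 50.6, 62.6 and 56.5 CPM in WT and 55.7, 52.3 and 53.7 CPM in Rest_het libraries, and the groups overlap. Its paralog Srrm3 measured 2.68, 2.53 and 2.78 CPM in WT and 3.73, 3.33 and 2.87 CPM in Rest_het libraries. The mutant values of Srrm3 lay above those of WT, with a log2 fold change of 0.31 that did not pass (edgeR adjusted p 0.56). Ptbp2, a neural splicing repressor, measured 419, 432 and 422 CPM in WT and 364, 376 and 378 CPM in Rest_het libraries. All 3 mutant values of Ptbp2 lay lower, at a log2 difference of -0.19 (edgeR adjusted p 0.38).

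The pattern of Rest over the 6 libraries was set beside those of other genes, and 3 are named as most like it, out of 8270 candidates with a mean of at least 10 CPM. Likeness was the root mean square difference of the log2 deviations from each gene's mean. Tmem170b, a membrane protein gene, differed from Rest by 0.021, the cell adhesion gene Nectin3 by 0.025 and Mrpl24, which encodes a mitochondrial ribosomal protein, by 0.033. Each of these 3 was lowest in Rest_het replicate 1, as Rest was. Of the members with a mean of at least 10 CPM, Kdm1a came nearest to Rest at 0.076, ranking 322 among the candidates, while Hmg20b lay farthest at 0.47. Rcor1 and Rcor3 fell under that level and were not compared. With 6 libraries such ranks are a description only.

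None of the 3 scaffold genes passed the test. Rcor1 (plus strand of chromosome 12, 111039351 to 111115901), the gene of the founding CoREST protein, measured 8.65, 8.70 and 6.39 CPM in WT and 7.84, 9.53 and 8.87 CPM in Rest_het libraries, and the groups overlap, WT replicate 3 being the lowest. Its log2 fold change was 0.14 with an interval from -0.25 to 0.54 and an edgeR adjusted p of 0.76. Single libraries moved it: leaving out WT replicate 3 gave 0.011, leaving out WT replicate 2 gave 0.22, and leaving out Rest_het replicate 2 gave 0.081. Rcor2 (plus strand of chromosome 19, 7267325 to 7275225), the scaffold paralog known from neural progenitors, measured 8.99, 12.8 and 12.1 CPM in WT and 13.1, 13.9 and 13.3 CPM in Rest_het libraries. The mutant values lay above all WT values, but WT replicates 2 and 3 lay close beneath them and replicate 1 far below. The log2 fold change of Rcor2 was 0.25 with an interval from -0.10 to 0.60 (edgeR adjusted p 0.54), and it was 0.11 without WT replicate 1.

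Rcor3, the third scaffold gene, measured 10.9, 9.81 and 9.73 CPM in WT and 8.32, 9.42 and 8.66 CPM in Rest_het libraries. All mutant values lay below all WT values, with a log2 fold change of -0.21, an interval from -0.50 to 0.092 and an edgeR adjusted p of 0.54. The count of Rcor3 is cut by its place in the genome. It lies on the minus strand of chromosome 1 from 192098546 to 192138062, and its exons share 667 bases with the antisense gene Gm26879, 336 with Gm10516 and 133 with Gm37055. Read pairs in shared bases are ambiguous when strand is ignored and leave the unstranded count. The unstranded count held 1090 Rcor3 reads in all 6 libraries, while the 2 strand columns together held 2114, a ratio of 1.94. For the other 8 genes that ratio was at most 1.001. In the same columns Gm26879 went from 11 to 1007 reads. These libraries do not mark strand, so reads of Rcor3 and of its antisense genes cannot be told apart where they share bases.

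With the summed strand columns, Rcor3 had 435, 396 and 355 reads in WT and 299, 317 and 312 in Rest_het libraries. Again all mutant counts lay below all WT counts, before any scaling for the deeper WT libraries. Scaled for depth, the log2 fold change was -0.26 with SE 0.10 (unadjusted p 0.038, edgeR adjusted p 0.41), so it did not pass either.

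Kdm1a, the demethylase LSD1, removes methyl groups from histone tails and is the catalytic partner of the scaffold. On the minus strand of chromosome 4 (136550540 to 136602723), it measured 193, 211 and 202 CPM in WT and 173, 187 and 178 CPM in Rest_het libraries, on 3209 to 4041 reads per library. All mutant values lay below all WT values, and the gap between the closest pair, WT replicate 1 and Rest_het replicate 2, was small. Its log2 fold change was -0.17 with SE 0.076 and an interval from -0.35 to 0.001, the narrowest interval among the 9 genes. The unadjusted p was 0.052 and the edgeR adjusted p 0.43. Among the libraries with Y-linked reads it was -0.13.

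The 2 deacetylase genes had different library patterns. Hdac2 (plus strand of chromosome 10, 36974544 to 37001889) measured 141, 231 and 219.9 CPM in WT and 206, 202 and 205 CPM in Rest_het libraries. The mutant values lay close together (SD 2.19 CPM), while WT replicate 1 lay far below the other WT libraries. The genotypes overlap, with a log2 fold change of 0.050 and an interval from -0.34 to 0.44 (edgeR adjusted p 0.93). Without WT replicate 1 its sign turned, to -0.14 with an edgeR adjusted p of 0.57.

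Hdac1 measured 56.3, 75.8 and 57.3 CPM in WT and 54.3, 70.3 and 56.9 CPM in Rest_het libraries. It was high in replicate 2 of both genotypes and level in the other 4 libraries, so the groups overlap. Its log2 fold change was -0.061 with an interval from -0.40 to 0.28 and an edgeR adjusted p of 0.90. The sign is not stable: it was 0.13 among the libraries with Y-linked reads and 0.092 without WT replicate 2.

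Hdac1 has a processed copy elsewhere in the genome, the pseudogene Gm10093 on the plus strand of chromosome 17 (78491582 to 78493025). Hdac1 itself lies on the minus strand of chromosome 4 from 129516104 to 129542713. The copy matches 1444 bases of the 2038-base Hdac1 transcript, from position 85 to 1528, with 9 differences, an identity of 99.4%. Of the 1913 windows of 126 bases in the transcript, which is the read length, 801 (41.9%) occur unchanged in the copy. The stretch below shows how alike the gene and its copy are. It covers positions 401 to 451 of the transcript across exons 4 and 5 (chr4:129523090-129524284, minus strand, with an intron between) and its match in the copy, which has no intron (chr17:78491898-78491948). The capital marks the single difference, G426A, counted from the first base of the transcript.
Hdac1: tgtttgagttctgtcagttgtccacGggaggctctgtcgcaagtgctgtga
Gm10093: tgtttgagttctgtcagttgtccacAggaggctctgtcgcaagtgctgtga

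Reads that match both places equally are counted for neither, and 6.29 to 7.48% of read pairs were set aside as mapping to several places. Gm10093 had 101, 19 and 123 reads in WT and 112, 6 and 97 reads in Rest_het libraries. The libraries with the fewest reads on the copy, replicate 2 of each genotype, were the ones with the most on Hdac1. Adding both gave 61.1, 76.8 and 63.6 CPM in WT and 60.4, 70.6 and 62.1 CPM in Rest_het libraries. The same libraries thus remained the highest after the reads of the copy were added. The log2 fold change of the sum was -0.062 (edgeR adjusted p 0.86). The sum leaves out reads that map to both places. It also leaves out AC125456.1, another gene that matches 1449 bases of the Hdac1 transcript, at an identity of at most 96.3%. What sets these libraries apart was not tested.

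**Figure D2:**
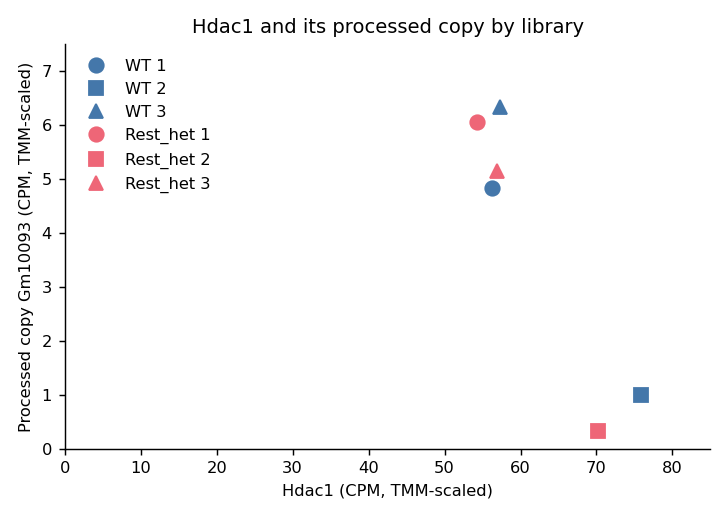
TMM-scaled CPM of Hdac1 (x axis) and of its processed copy Gm10093 (y axis), 1 point per library, colored by genotype and shaped by replicate number. WT replicate 2 and Rest_het replicate 2 lie at 75.8 and 70.3 CPM of Hdac1 with at most 1.0 CPM of the copy, apart from the other 4 libraries at 54.3 to 57.3 CPM.

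Of the accessory subunits, Phf21a encodes a plant-homeodomain protein that reads unmethylated histone tails. On the plus strand of chromosome 2 (92093117 to 92364666), it measured 35.7, 38.1 and 35.2 CPM in WT and 37.2, 34.7 and 36.5 CPM in Rest_het libraries. The groups overlap throughout, and the log2 fold change was -0.007 with an interval from -0.20 to 0.18 (edgeR adjusted p 0.98). As a ratio of Rest_het to WT, that interval is 0.873 to 1.13.

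Hmg20b encodes a DNA-binding HMG-box subunit of the complex. On the minus strand of chromosome 10 (81346048 to 81350480), it measured 8.99, 13.98 and 13.4 CPM in WT and 19.1, 18.6 and 17.1 CPM in Rest_het libraries. All mutant values lay above all WT values, on 321 to 354 reads in Rest_het and 188 to 265 reads in WT libraries. The mean was 12.1 ± 2.74 CPM in WT and 18.3 ± 1.09 CPM in Rest_het (SD, n = 3; exact permutation p 0.1). At 0.59 with SE 0.17, its log2 fold change was the largest in size of the 9 genes, a 1.51-fold level with an interval from 1.14 to 1.99. Its unadjusted p was 0.0091 and its edgeR adjusted p 0.35, so it was not called. WT replicate 1 was the lowest library for Hmg20b, as for Rcor2 and Hdac2. Without it the log2 fold change was 0.41 (edgeR adjusted p 0.48), and among the libraries with Y-linked reads it was 0.75 (0.39).

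**Figure D3:**
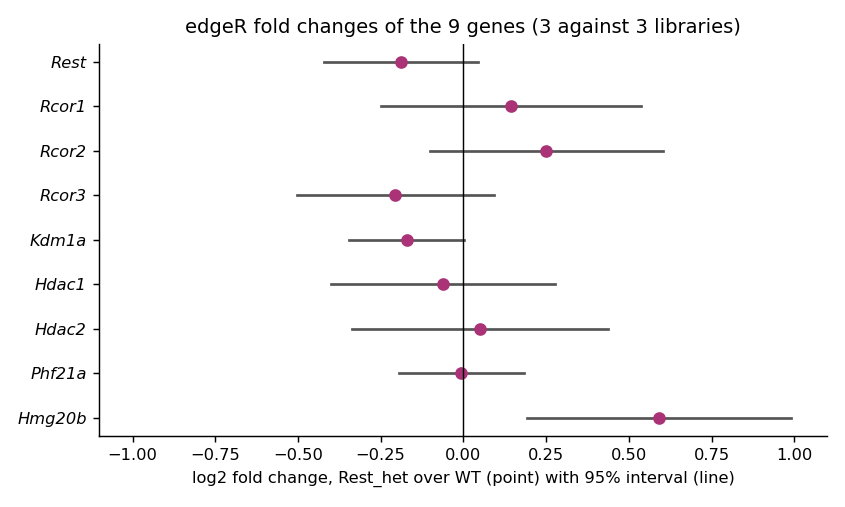
edgeR log2 fold change of Rest_het over WT (points) with 95% intervals (lines) for the 9 genes, from 3 against 3 libraries; the vertical line marks no difference. The interval of Hmg20b, from 0.19 to 0.99, is the one that leaves out 0, and that of Kdm1a ends at 0.001.

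Ratios of 2 genes within a library do not depend on how libraries were scaled. Those of 5 pairs of members are given per kilobase of exon, with exact two-sided permutation tests that cannot give a p under 0.1 and with p-values adjusted over the 6 ratios computed. Rest per Rcor1 was 1.91, 1.78 and 2.60 in WT and 1.68, 1.57 and 1.65 in Rest_het libraries. Kdm1a per Rcor1 was 24.5, 26.6 and 34.6 in WT and 24.3, 21.5 and 22.0 in Rest_het libraries. Rcor3 per Rcor1, on the cut unstranded count of Rcor3, was 0.526, 0.470 and 0.636 in WT and 0.443, 0.412 and 0.407 in Rest_het libraries. In these 3 ratios all mutant values lay lower (exact permutation p 0.1 and adjusted p 0.15 each), and all share Rcor1, whose WT replicate 3 was low. Without that library the log2 difference went from -0.34 to -0.18 for Rest, from -0.33 to -0.18 for Kdm1a and from -0.36 to -0.24 for Rcor3. The ratios Rcor2 to Rcor1 and Hdac2 to Hdac1 overlapped between genotypes (exact permutation p 0.8 and 0.7). Their log2 differences of 0.11 and 0.14 turned to -0.12 and -0.010 without WT replicate 1.

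**Figure D4:**
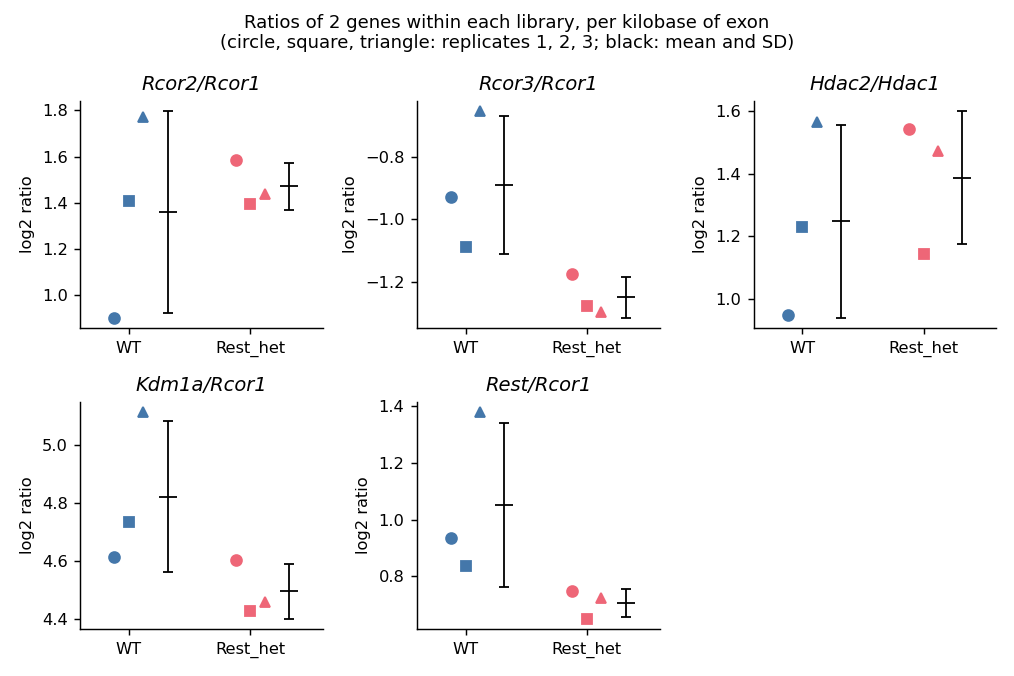
log2 ratio of 2 genes' reads per kilobase of merged exon within each library (y axes; they do not start at 0), by genotype; symbols mark the replicate number, and black bars the mean and SD over 3 libraries. The 3 ratios of Rest, Kdm1a and Rcor3 to Rcor1 are apart between genotypes, and WT replicate 3 is the highest library in each of the 5 panels.

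Levels per length order the subunits. On TPM over merged exon length, Hdac2 (177 ± 41.2 in WT; SD, n = 3) and Kdm1a (157 ± 3.56) were the highest, and their WT values overlap. Hdac1 followed at 73.6 ± 11.2 TPM, without any reads placed on the copy described above or mapping to both places. Phf21a (17.1 ± 0.451), Hmg20b (15.47 ± 3.25), Rcor2 (14.4 ± 2.34) and Rest (11.5 ± 0.667) came next, and neighbours among these genes overlap in their WT values. Rcor1 measured 5.604 ± 0.931 TPM and Rcor3 3.00 ± 0.249 TPM, both apart from their neighbours. The span from Hdac2 to Rcor3 was 59.0-fold. The place of Rcor3 rests on its length and on its cut count. Its merged exons hold 13622 bases against 3791 in its longest transcript. Over the latter it measured 8.08 TPM, above Rcor1 at 4.20. On the unstranded counts Rcor2 had the highest WT level per length of the 3 scaffold genes with either length. The unstranded count held 1090 Rcor3 reads, against 2114 in the summed strand columns. Levels on those columns were not computed, so the order of Rcor2 and Rcor3 is not settled.

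In Rest_het libraries the order differed in its middle. Hmg20b stood at 23.9 ± 1.09 TPM and Rcor2 at 17.5 ± 0.410 TPM, both ahead of or level with Phf21a at 17.4 ± 0.957 TPM (SD, n = 3). The other 6 genes kept their ranks.

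**Figure D5:**
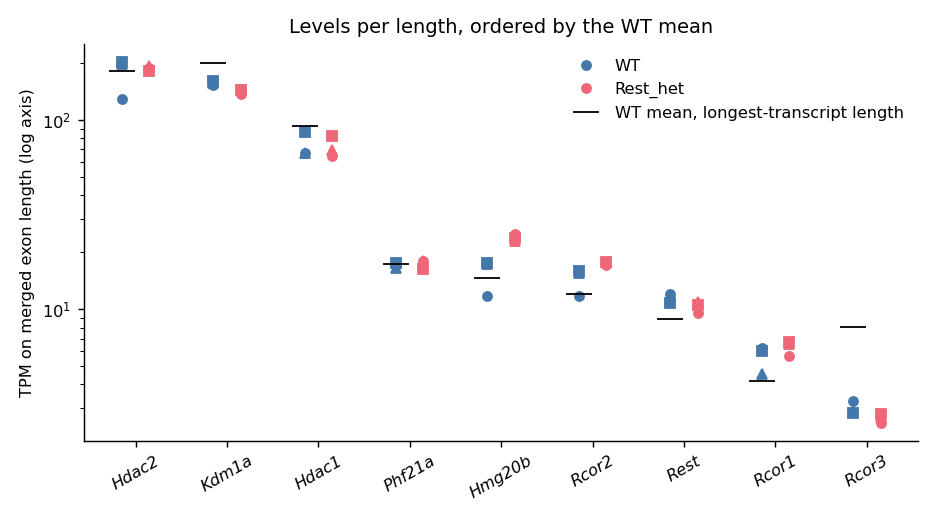
TPM over merged exon length (log axis) of the 9 genes in each library, colored by genotype and ordered by the WT mean; black bars give the WT mean over the length of the longest transcript. Hdac2 and Kdm1a lie highest in both genotypes, and Rcor3 is the gene whose level moves most with the length used.

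Genes that bring the complex to DNA or share its subunits were compared as lists chosen with earlier results of these data known. Of 24 partners that bind CoREST, LSD1 or REST, 22 were tested, and Gfi1 and Gfi1b fell under the filter. edgeR called 0 and DESeq2 called 1, and 3 higher genes and 1 lower gene had edgeR p-values under 0.05 before adjustment. Over all tested genes DESeq2 called 0.825%, and 11.7% had such unadjusted p-values. The median log2 fold change was 0.035, with 12 above 0 and 10 below. Ctbp1, the corepressor that binds the complex through short peptide motifs, measured 24.8, 33.0 and 42.8 CPM in WT and 74.2, 75.6 and 50.04 CPM in Rest_het libraries. All mutant values lay above all WT values, with Rest_het replicate 3 near the highest WT library. The difference was 0.99 with SE 0.22 on the log2 scale (edgeR adjusted p 0.32), and it was the gene DESeq2 called, with an adjusted p of 0.0023. For Gse1, whose protein is found with LSD1, the log2 fold change came to 0.45 (edgeR adjusted p 0.35), and to 0.15 (0.49; unadjusted p 0.11) with the summed strand columns. For Snai1, a repressor that recruits LSD1, it came to 1.21 (0.40), or 0.57 among the libraries with Y-linked reads, at no more than 1.22 CPM in any library.

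Among 22 other class I deacetylase scaffolds and relatives, all tested (Elmsan1 was also listed as Mideas, its newer symbol, and counts once), edgeR and DESeq2 each called 0. Before adjustment 2 higher genes and 1 lower gene had edgeR p-values under 0.05, and the median log2 fold change was 0.089, with 15 above 0. As background, edgeR called 0.123% of all tested genes and DESeq2 0.825%. Such unadjusted p-values occurred in 11.7% of tested genes, and 50.9% lay above 0. Mier3, the scaffold of another deacetylase complex, measured 979, 644 and 948 CPM in WT and 562, 673 and 603 CPM in Rest_het libraries. The groups overlap through WT replicate 2, at -0.49 on the log2 scale (edgeR adjusted p 0.36). Sin3b, the scaffold that binds the N-terminal repressor domain of REST, lay higher by 0.24 (0.40). The X-linked histone chaperone gene Rbbp7 lay higher by 0.38 (0.42), or by 0.20 without WT replicate 1, with 65.2, 99.2 and 101 CPM in WT and 116, 113 and 117 CPM in Rest_het libraries. WT replicate 1 was again the low one.

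Of 40 known targets of REST, 39 were tested, and Vgf fell under the filter. None was called by edgeR, which called 0.123% of all tested genes, while 3 were lower by DESeq2, which called 0.825%. Before adjustment 10 lower genes and 1 higher gene had edgeR p-values under 0.05, where 11.7% of all tested genes did so. In 11 of 39 all mutant values lay below all WT values, where 8.94% of tested genes did so. The median log2 fold change was -0.051, with 24 below 0. The list was chosen with these results known and is not independent evidence of its direction. Chgb, a granin of secretory granules, measured 21.6, 26.6 and 26.7 CPM in WT and 15.8, 13.4 and 12.5 CPM in Rest_het libraries. The groups are apart by -0.85 on the log2 scale, with an adjusted p of 0.12 by edgeR or 0.00018 by DESeq2. Snap25, a SNARE protein of vesicle release, lay lower by -0.39 (0.25, or 0.013 by DESeq2). The summed neuron markers given above lay lower in the mutants too, and 1 of them, Tubb3, is also in this list. Before adjustment 0 of these 6 markers had an edgeR p under 0.05, while 2 of the 4 intermediate progenitor markers were lower at that threshold. The part of cell types in the lower targets was not tested.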

How the data were processed

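RNA was primed with oligo dT, copied with a template switch, amplified, tagmented and sequenced as paired reads of 126 bases, per the labels' protocols. The chemistry holds no strand mark or molecular identifiers. The deposited read counts per gene come from STAR 2.5.2a; the submitters' processing notes name this tool and build GRCm38.p4, and the annotation release is not given in the sources used here. The unstranded column was used. The deposited normalized signal, which the same notes tie to DESeq2, equals these counts divided by 1 size factor per library. Rows naming no gene stayed out of tests, as did 99 spike-in and 15 transgene sequences. Of read pairs, 1.21 to 1.45% were unmapped, 6.29 to 7.48% multimapping, 21.4 to 26.9% in no exon and 2.54 to 2.85% ambiguous.

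Symbols matched 48349 of 48709 IDs. Genotype was tested with edgeR 4.0.16 (R 4.3.3): TMM, filterByExpr with a minimum of 10 and a total of 15, quasi-likelihood test, Benjamini-Hochberg adjustment, threshold 0.05. SE is the log2 fold change over the root of F, and 95% intervals use its t distribution. TPM used GENCODE M21 lengths. Copies were searched with BLAST+ 2.17.0 (identity of at least 95% over at least 126 bases). Alternatives used DESeq2 1.42.0 and limma 3.58.1, and the procedure was tested on simulated data.

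Members and lists were chosen with earlier results of these data known. Besides the 9 members, the text names from each list called genes and the 3 with the smallest p, Srrm4 and Srrm3, and the 3 genes most like Rest. Genes the filter removed and Rgs5, Tubb3, Gm10093 and the antisense genes were named after their values were seen. AC125456.1 was named from the search for copies. Splicing needs reads and was not analysed here; 1 of the 6 ratios and 1 gene of the REST target list are not reported here.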

Additional observations from a re-analysis of the deposited data

Results flagged for a closer look

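Sequences outside the gene counts gave a signal in one genotype only: 43 reads on the Cre-ERT2 sequence in the 3 Rest_het libraries (10, 16 and 17) against 0 in the 3 WT libraries. The LacZ sequence had 121 reads in WT libraries and 0 in Rest_het libraries. These reads are few and may hold PCR copies, which were not counted. They separate the libraries exactly as the genotype does. Each difference reported for Rest and the CoREST genes is thus also a difference between libraries with and without these sequences.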

How the results depend on the processing

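Over 18 alternative fits, 0 of the 9 genes were called, the adjusted p ranging from 0.138 (Hmg20b, DESeq2) to 0.991. Of these genes 6 kept their direction in all 18 fits, among them Rest (-0.24 to -0.14). The sign turned for Hdac1 (0.133) and Phf21a (0.020) among the libraries with Y-linked reads, a subset chosen after seeing the data, as were the summed strand columns and the sum of Hdac1 with its copy. Leaving out single libraries gave -0.178 to 0.092 for Hdac1, -0.143 to 0.178 for Hdac2, -0.030 to 0.028 for Phf21a and -0.144 to 0.009 for Srrm4, which had 0.011 among the libraries with Y-linked reads. It gave -0.116 to 0.317 for the ratio Rcor2 to Rcor1, -0.010 to 0.298 for Hdac2 to Hdac1, and 12 to 35 genes called against 19. Without a count filter edgeR called 107 genes, with 1 partner and 2 REST targets. DESeq2 called 131, with 1 and 3. The order of levels changed for 4 genes on the longest transcript and for 0 to 2 without single WT libraries. The causes were not tested.

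Over all tested genes, same-numbered libraries did not deviate together (correlations 0.011, 0.037 and -0.144, and 1 of 3 WT libraries correlated best with its own number). These correlations do not describe single genes such as Hdac1. Whether same-numbered libraries share more than a number is not named in the labels and was not tested. With the replicate block edgeR called 6 genes and 0 of the 9, Hmg20b having 0.61 (adjusted p 0.51) and Rest -0.19 (0.60). The scaffold genes rest on 124 to 251 reads per library.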

Other observations

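The spread between libraries was wider in WT than in Rest_het for 8 of the 9 genes. The coefficient of variation was 24.9% against 1.07% for Hdac2, 22.6% against 5.94% for Hmg20b and 18.0% against 3.16% for Rcor2, with n = 3 each. It was close for Rcor3 (6.41% against 6.39%), Kdm1a (4.49% against 3.78%) and Phf21a (4.29% against 3.57%). Over all tested genes the median was 13.0% in WT and 12.0% in Rest_het, and 53.6% of genes had the wider spread in WT. For Hdac2, Hmg20b and Rcor2, WT replicate 1 was low. It lay 0.67, 0.58 and 0.45 on the log2 scale below the mean of the other WT libraries. Rest was the exception, with 3.77% in WT and 6.79% in Rest_het.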
